A study of Mus musculus with 2 samples.

Results

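Fc receptor genes encode the proteins through which leukocytes bind antibody. The 10 genes described here were Fcgr1, Fcgr2b, Fcgr3, Fcgr4, Fcer1g, Fcer1a, Fcer2a, Fcmr, Fcgrt and Fcrls, taken by name from the 24785 genes listed in either of 2 count tables. All 10 had molecules in both tables. The tables hold CD45+ leukocytes sorted from the lungs of wild-type C57BL/6N mice of 10 to 16 weeks. One library came from BLM-injured lungs, taken on day 15 after 50 μg of bleomycin (BLM), a DNA-damaging agent used to induce pulmonary fibrosis, was given through the trachea. The other came from naive lungs with no treatment. Each library pooled 3 mice, so a treatment had 1 library and no replicate. No test of BLM against naive was possible, and the values of single mice could not be separated. The intervals given are 95% intervals for counting error only. They do not include the spread between mice.

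Antibody receptors of myeloid cells work as a balance. Fcgr1, Fcgr3 and Fcgr4 are activating receptors for IgG that signal through the gamma chain encoded by Fcer1g, which carries an ITAM, a motif phosphorylated when receptors are crosslinked by immune complexes. Fcgr2b is the inhibitory IgG receptor. It carries an ITIM, a motif that recruits phosphatases, and it is also the Fc gamma receptor of B cells. Fcgrt encodes the heavy chain of FcRn, which recycles IgG inside cells. Fcer1a is the IgE-binding chain of the high-affinity IgE receptor of mast cells and basophils, Fcer2a (CD23) is the low-affinity IgE receptor of B cells, and Fcmr binds IgM. Fcrls encodes a member of the Fc receptor-like family with scavenger receptor domains and is known as a marker of microglia, the macrophages of the brain.

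The genes lie in a few places of the mouse genome (GRCm38, GENCODE M21). Fcgr2b (chr1:170958617-170976547, minus strand), Fcgr4 (chr1:171018920-171029761, plus strand), Fcgr3 (chr1:171051174-171064935, minus strand) and Fcer1g (chr1:171229572-171234365, minus strand) fell within 275.7 kb of chromosome 1. Fcer1a (chr1:173221284-173227214) and Fcmr (chr1:130865669-130880791) lay elsewhere on chromosome 1. Fcgr1 (chr3:96282909-96293969) and Fcrls (chr3:87250758-87263738) were on chromosome 3, Fcgrt (chr7:45092990-45103851) on chromosome 7 and Fcer2a (chr8:3681737-3694175) on chromosome 8. Counts were whole-gene sums, so exons and isoforms could not be told apart. Of the 50-base words in the transcripts of Fcgr3, 9.58% also occurred in Fcgr2b. Molecules from that stretch are uncertain between both genes. Of the words of Fcgr2b, 4.38% occurred in other genes, among them Fcgr3, Gm4117, Pou2f2 and Gm33843. For 7 members no such word occurred in another gene, and for Fcer2a 1.16% did.

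The 250 bases before a RefSeq start of each of the 4 Fc gamma receptor genes are shown. These genes are counted in the same myeloid cells and their balance is described below. The sequences are those of GRCm38.p6, read 5′ to 3′ on the strand of the gene. The windows of Fcgr2b and Fcgr3 lie inside the GENCODE gene spans given above, which begin farther upstream. Distances below are to the RefSeq start used. Capitals mark GAGGAA or, for a match on the other strand, TTCCTC, the core letters bound by ETS factors such as PU.1. The windows are chr3:96293970-96294219 (minus strand) for Fcgr1, chr1:170976072-170976321 (minus strand) for Fcgr2b, chr1:171059404-171059653 (minus strand) for Fcgr3 and chr1:171018676-171018925 (plus strand) for Fcgr4.
Fcgr1: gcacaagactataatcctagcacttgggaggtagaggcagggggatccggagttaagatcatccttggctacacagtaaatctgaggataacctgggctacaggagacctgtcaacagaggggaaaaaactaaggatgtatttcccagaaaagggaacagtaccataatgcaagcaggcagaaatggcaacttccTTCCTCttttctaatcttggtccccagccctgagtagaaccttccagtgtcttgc
Fcgr2b: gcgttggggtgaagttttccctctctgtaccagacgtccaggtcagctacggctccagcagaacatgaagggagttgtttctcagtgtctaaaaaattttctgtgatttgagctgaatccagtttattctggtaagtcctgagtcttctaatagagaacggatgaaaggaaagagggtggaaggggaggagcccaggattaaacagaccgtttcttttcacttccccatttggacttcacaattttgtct
Fcgr3: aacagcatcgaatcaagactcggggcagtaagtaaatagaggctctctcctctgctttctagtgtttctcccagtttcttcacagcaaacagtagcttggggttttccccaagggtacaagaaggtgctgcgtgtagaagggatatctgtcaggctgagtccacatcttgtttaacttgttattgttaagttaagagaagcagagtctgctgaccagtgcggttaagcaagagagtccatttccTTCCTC
Fcgr4: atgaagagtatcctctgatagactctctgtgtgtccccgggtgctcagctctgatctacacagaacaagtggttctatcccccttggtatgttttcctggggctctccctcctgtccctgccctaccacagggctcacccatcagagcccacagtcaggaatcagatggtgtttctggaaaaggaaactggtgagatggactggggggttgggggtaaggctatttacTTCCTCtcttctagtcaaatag
The window of each activating receptor held 1 match, whose first printed base lay 55 bases before the start in Fcgr1, 6 in Fcgr3 and 22 in Fcgr4, and 15 in a second RefSeq window of Fcgr3. The window of Fcgr2b held no GAGGAA on either strand, though it holds the shorter GGAA, which was not counted. Among all 10 members, which were all matched by symbol, 6 held GAGGAA on either strand in at least 1 window, against 23.3% of 32851 windows of the same length. The letters TTCNNNGAA, a form bound by STAT factors, occurred in 1 member, Fcgr1, against 7.02% of all windows. The 2 motifs did not overlap in Fcgr1, where the latter began 109 bases before the start. A match describes letters and does not show binding.

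Each table gives unique molecular identifiers (UMIs, counted molecules) per cell and gene. After filters, 4393 cells of the BLM library with 21216094 UMIs and 3820 of the naive library with 16973497 UMIs remained, with medians of 2381 and 2701.5 UMIs per cell. Cells were placed in classes by marker genes, none of which was a member, and 88.6% of the gated cells lay in a cluster of the same class. A cluster took the class to which 50% or more of its own cells were gated, so part of this match was built in. BLM clusters of 231 and 333 cells, whose largest class was Spp1-high C1q macrophages with 42.4% and 45.3%, took no class. Levels are counts per 1000000 UMIs of a class (CPM). UMIs count molecules and were not divided by length, and how well each gene is captured was not measured, so orders between genes are those of counted molecules. Of the classes, 9 had 50 or more cells in both libraries and were compared. Cells positive for cycling genes (182 and 114), which mix cell types, and unassigned cells were left out of the comparison whatever their number. C1q macrophages rich in Spp1, Arg1 and Gpnmb numbered 443 in the BLM library and 0 of 3820 cells in the naive library (a count of 0 allows at most 0.0785% of them), and were compared within the BLM library. The remaining C1q macrophages numbered 150 in the BLM and 77 in the naive library. Their BLM cells had only 1 own marker, Pf4, among the 10 leading genes, beside F13a1 and Clec10a of other panels, so they are named by their gate. They fell mainly in 3 clusters (63, 38 and 29 cells), and the naive ones in 1 (64 cells). T cells, which should lack most members, held B cell marker UMIs at 32.2 CPM in the BLM and 78.6 CPM in the naive library, with all 7 markers seen in each. C1q macrophage markers in T cells lay at 125 CPM in the BLM and 49.4 CPM in the naive library, with all 8 seen in each. The level of a member in T cells is therefore given below for comparison. The source of these UMIs (free RNA or mixed barcodes) was not measured. A total of 22 cell index numbers occurred in both tables.

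Myeloid classes held most of the Fc gamma receptor UMIs. In the BLM library the Spp1-high C1q macrophages alone held 41.7% of Fcgr2b, 43.5% of Fcgr3 and 44.2% of Fcgr1 UMIs. In the naive library alveolar macrophages (AMs) held 41% of Fcgr2b, 58% of Fcgr3 and 62.4% of Fcgr1 UMIs. Fcer2a and Fcmr lay in B cells, which held 86.9% and 90.5% of Fcer2a UMIs and 89.6% and 89.7% of Fcmr UMIs in the BLM and naive libraries. Shares of this kind depend on how many cells of a class were sorted as well as on the level per cell.

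**Figure D1:**
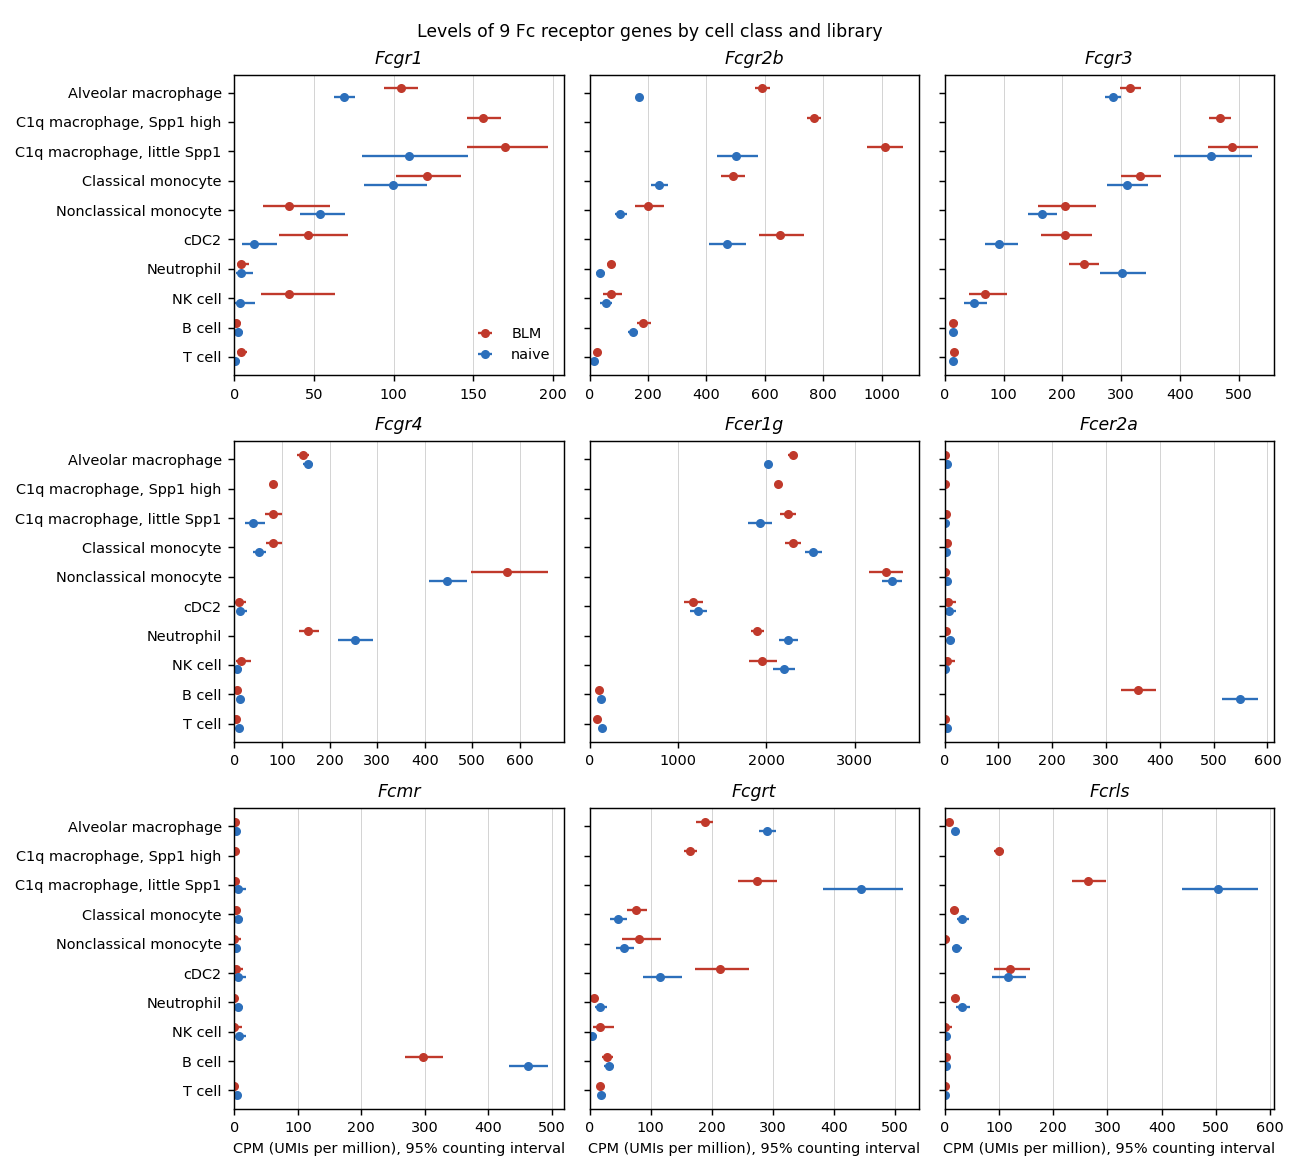
Levels of 9 members in CPM (x axis, from 0, a scale for each gene) in 10 cell classes (y axis) of the BLM (red) and naive (blue) library; bars are exact Poisson 95% intervals. Fcgr2b in AMs sits at 591 CPM in the BLM and 171 CPM in the naive library, and Fcer2a and Fcmr stand out in B cells alone.

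Fcgr2b was the member past 2-fold in the most classes, 4 of 9. In AMs it stood at 591 CPM (566 to 616, 2178 UMIs in 320 cells) in the BLM library and at 171 CPM (160 to 181, 1058 UMIs in 628 cells) in the naive library. The log2 ratio of BLM over naive was 1.79 (1.69 to 1.90). The difference was spread over the cells. Of the 320 BLM AMs, 277 (86.6%) lay above the median of the naive AMs, and 195 (60.9%) lay above their 90th percentile. A Fcgr2b UMI was found in 91.6% of BLM AMs and 65% of naive AMs, with medians of 11251.5 and 9689 UMIs per cell. After thinning each cell to 1000 UMIs these shares were 43.9% and 15.4%. The T cell shares were 6.73% and 4.04% unthinned, at medians of 2468.5 and 2552 UMIs, and 2.43% and 1.45% thinned.

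The BLM AMs were not uniform. Those in a cluster shared with Spp1-high C1q macrophages (122 cells) had Fcgr2b at 952 CPM, and those in the cluster made mostly of AMs (182 cells) at 466 CPM. Naive AMs fell in 2 clusters with 172 and 157 CPM. Without AMs of any cluster in which Spp1-high C1q macrophages outnumbered them, 185 BLM AMs remained and the log2 ratio was 1.44 (1.32 to 1.56). The summed level of the 8 C1q macrophage markers in gated AMs was 482 CPM in the BLM and 175 CPM in the naive library, with all 8 markers seen in each, and their part in the Fcgr2b difference beyond this split was not tested. Leaving out AMs with 2 or more of Spp1, Arg1 and Gpnmb left 44 BLM and 356 naive cells, with Fcgr2b at 836 and 194 CPM. Both of these subsets were chosen after the values were seen.

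**Figure D2:**
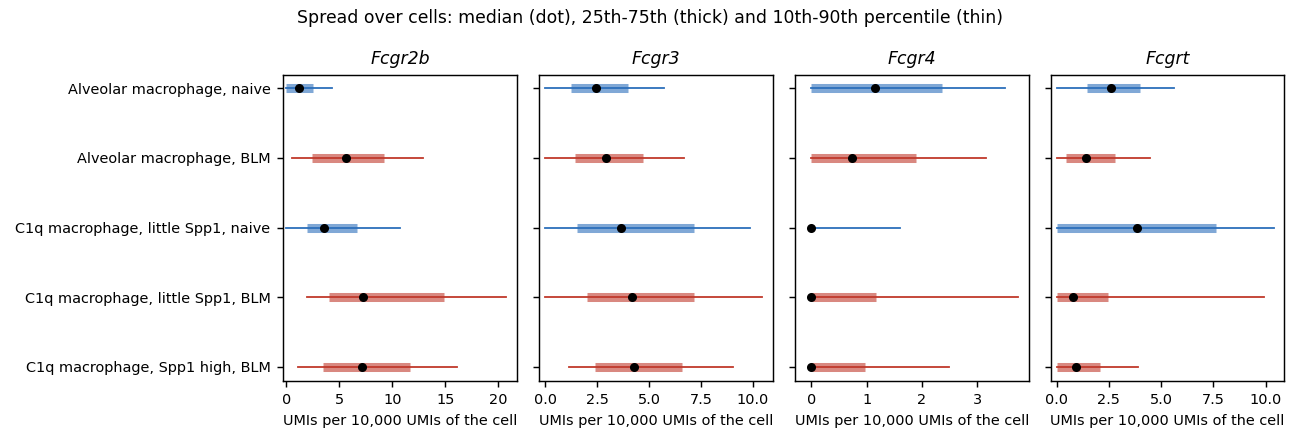
Spread of Fcgr2b, Fcgr3, Fcgr4 and Fcgrt over single macrophages, in UMIs per 10000 UMIs of the cell (x axis, a scale for each gene); dots are medians, thick bars the 25th to 75th and thin bars the 10th to 90th percentiles of cells. The median of Fcgr2b is 5.62 in BLM AMs and 1.14 in naive AMs, while that of Fcgr3 is 2.95 and 2.45.

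The other compared myeloid classes gave Fcgr2b ratios in the same direction. In C1q macrophages with little Spp1 it was 1011 CPM in the BLM and 502 CPM in the naive library (log2 ratio 1.01, 0.79 to 1.23), the highest level of the 9 classes in each library. The log2 ratio was 0.92, no longer past 2-fold, in cells with at most 10% mitochondrial UMIs. Among C1q macrophages with 2 or more of Folr2, Lyve1 and Cd163, which mark resident interstitial macrophages, 49 BLM cells had 1370 CPM and 48 naive cells 483 CPM, a log2 ratio of 1.5 (1.23 to 1.78). This subset was chosen after the values were seen. Spp1-high C1q macrophages had 767 CPM, between the BLM AMs and the C1q macrophages with little Spp1.

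In classical monocytes Fcgr2b was 491 CPM in the BLM and 238 CPM in the naive library (log2 ratio 1.05, 0.83 to 1.27). With stricter gates this ratio was 0.67 and it no longer passed 2-fold. C1q macrophage markers in the gated monocytes lay at 1673 CPM in the BLM and 958 CPM in the naive library, with all 8 seen in each. The AM panel there was 3983 and 2092 CPM (10 and 11 of 11 markers seen), and the stromal panel 2326 and 38.2 CPM (9 and 8 of 10 seen). Their part in the Fcgr2b ratio was not tested. Neutrophils had 72.6 and 35.5 CPM (1.03, 0.41 to 1.70), from 102 and 27 UMIs, against T cell levels of 26.1 and 14.9 CPM, whose own log2 ratio was 0.81 (0.09 to 1.56). Nonclassical monocytes had 201 and 106 CPM (0.92, 0.47 to 1.37). In type 2 conventional dendritic cells (cDC2s) the levels were 653 and 470 CPM (0.48, 0.22 to 0.74), and with stricter gates the log2 ratio was -0.05. B cells had 184 and 148 CPM (0.32, 0.06 to 0.57), from 235 and 277 UMIs. The highest of the 578 BLM B cells held 22 of the 235. C1q macrophage markers in B cells lay at 464 CPM in the BLM and 149 CPM in the naive library, with all 8 seen in each. The part of that cell and of such RNA in the B cell ratio was not tested. The interval of NK cells, -0.47 to 1.25, included 0.

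The order of Fcgr2b levels in the naive library ran from C1q macrophages (502 CPM) and cDC2s (470 CPM) through classical monocytes (238 CPM), AMs (171 CPM), B cells (148 CPM) and nonclassical monocytes (106 CPM) to NK cells (54.6 CPM), neutrophils (35.5 CPM) and T cells (14.9 CPM). The intervals of C1q macrophages and cDC2s overlapped, as did those of AMs and B cells and those of NK cells and neutrophils. Type 1 conventional dendritic cells (cDC1s), with 45 BLM and 68 naive cells, had 88.1 and 168 CPM, lower in the BLM library. Cells positive for cycling genes had 419 and 144 CPM.

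**Figure D3:**
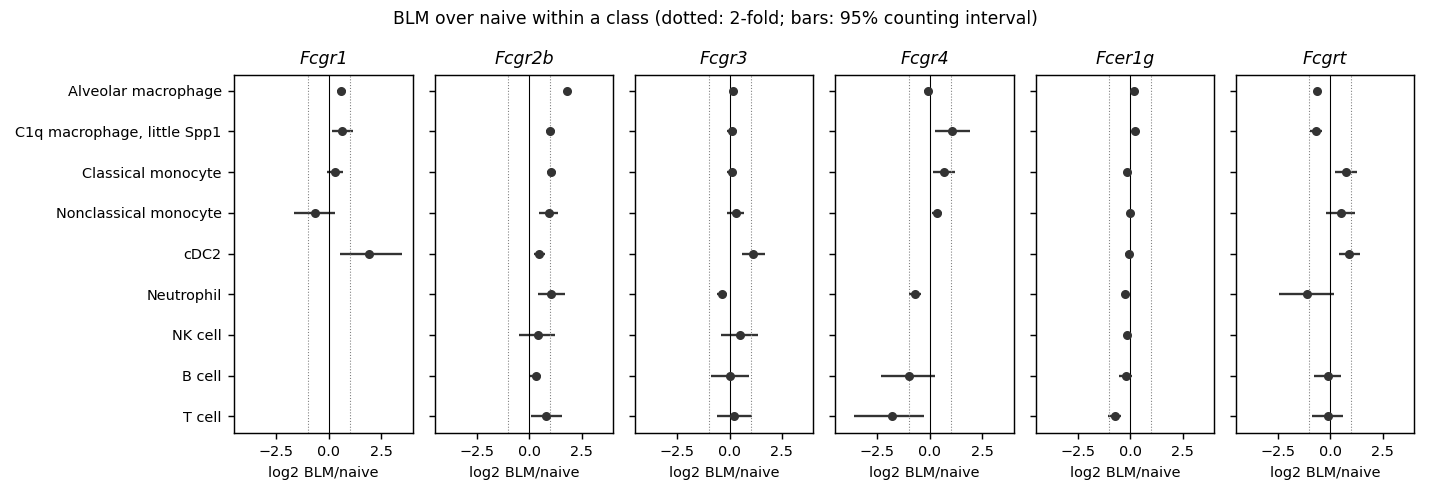
Log2 ratio of BLM over naive CPM (x axis) for 6 members in 9 classes (y axis), with exact conditional 95% counting intervals; dotted lines mark 2-fold, and pairs under 20 UMIs are left out. For Fcgr2b the ratio is highest in AMs at 1.79, and for Fcer1g it lies between -0.74 in T cells and 0.22 in C1q macrophages.

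The balance among the 4 Fc gamma receptor genes also differed between the libraries, a measure within the same cells that does not depend on library scaling. Fcgr2b gave 51.2% (49.7 to 52.7) of the 4255 Fc gamma receptor UMIs of BLM AMs and 25.1% (23.8 to 26.4) of the 4217 of naive AMs. The 3 activating genes together had 0.954 UMIs for each Fcgr2b UMI in BLM AMs and 2.99 in naive AMs. The share of Fcgr2b in BLM AMs came close to that of Spp1-high C1q macrophages, 52.1%. In C1q macrophages with little Spp1 it was 57.8% and 45.5%, in classical monocytes 47.9% and 34.1%, in neutrophils 15.5% and 5.99% and in nonclassical monocytes 19.8% and 13.7%, each in the BLM and the naive library. The share was lower in the BLM library in cDC2s, with 71.6% and 79.9%, in cDC1s, with 65.4% (50.9 to 78.0) and 89.5% (81.1 to 95.1), and in NK cells, with 38.2% (25.4 to 52.3) and 48.4% (35.8 to 61.3). B cells had 89.4% and 83.7%, the former with the cell of 22 Fcgr2b UMIs named above. T cells, given for comparison, had 53.7% (43.2 to 64.0) of 95 UMIs in the BLM library. In the naive library they had 39.1% (27.1 to 52.1) of 64 UMIs. The part of RNA from other cells in the shares of classes with few such UMIs, neutrophils among them, was not tested.

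**Figure D4:**
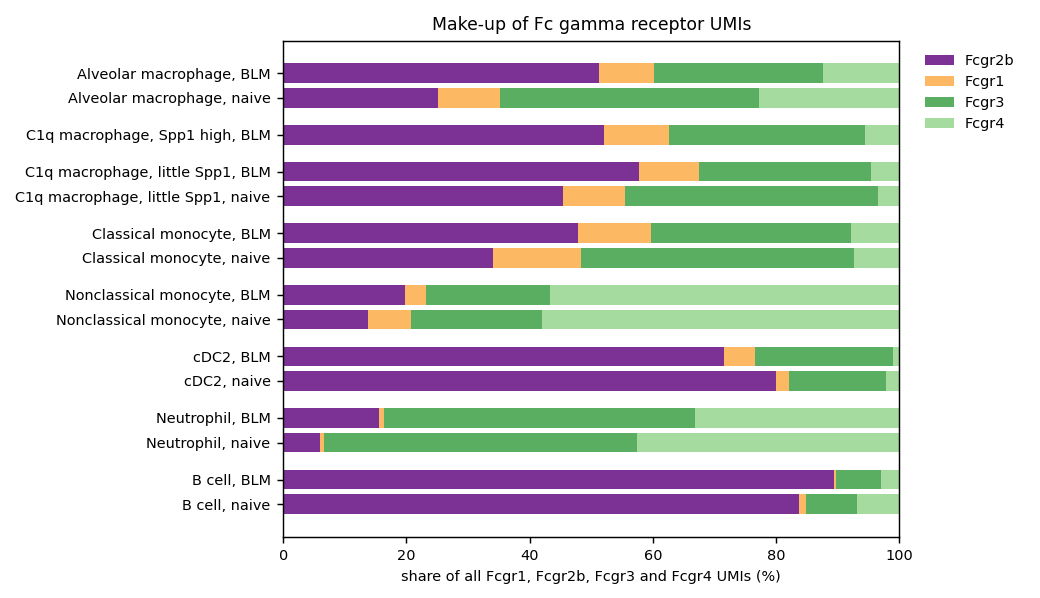
Share of Fcgr1, Fcgr2b, Fcgr3 and Fcgr4 in their summed UMIs (x axis, percent) in 8 classes of each library (y axis; Spp1-high C1q macrophages in the BLM library only). Fcgr2b takes 51.2% in BLM AMs and 25.1% in naive AMs, Fcgr4 leads in nonclassical monocytes, and Fcgr3 leads in neutrophils.

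In AMs the activating receptors had ratios nearer 0 than Fcgr2b. Fcgr1, which encodes the high-affinity IgG receptor CD64, stood at 104 CPM in BLM AMs and 69.2 CPM in naive AMs (log2 ratio 0.59, 0.39 to 0.80). In the AMs with fewer than 2 of Spp1, Arg1 and Gpnmb the order was turned, with 48.6 and 70.3 CPM from 16 and 208 UMIs and an interval that included 0 (-1.37 to 0.20). C1q macrophages with little Spp1 had 170 and 110 CPM (0.63, 0.15 to 1.14). Spp1-high C1q macrophages had 156 CPM and differed little from the other BLM C1q macrophages (log2 ratio -0.12, -0.36 to 0.12). In cDC2s Fcgr1 counted 20 UMIs in the BLM and 6 in the naive library, a log2 ratio of 1.90 (0.53 to 3.51). C1q macrophage markers in cDC2s were 561 and 203 CPM, with all 8 seen in each, and their part in this ratio was not tested. Neutrophils, B cells and T cells had at most 4.27 CPM. The 10 Fcgr1 UMIs of BLM NK cells came from 2 of 130 cells.

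Fcgr3, which encodes CD16, varied less between the libraries than Fcgr2b in macrophages. It was highest in C1q macrophages with little Spp1, at 489 CPM in the BLM and 453 CPM in the naive library (log2 ratio 0.11, -0.13 to 0.36). AMs had 315 and 285 CPM (0.14, 0.03 to 0.25), and classical monocytes 332 and 309 CPM (0.10, -0.12 to 0.32). Neutrophils were lower in the BLM library, at 236 against 301 CPM (-0.35, -0.60 to -0.10). In cDC2s Fcgr3 was 204 and 93.1 CPM (1.13, 0.60 to 1.68), but the ratio was 0.45 with stricter gates. NK cells had 68.6 and 49.3 CPM, above the T cell levels of 15.9 and 13.7 CPM, and a Fcgr3 UMI was found in 11.5% and 10.8% of them at medians of 2049 and 2136 UMIs per cell. The T cell shares were 4.26% and 3.55%. C1q macrophage markers in NK cells lay at 401 CPM in the BLM and 47.5 CPM in the naive library (7 and 8 of 8 seen). The AM panel there was 950 and 656 CPM (8 and 11 of 11 seen). Their part in the Fcgr3 level of NK cells was not tested.

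Fcgr4, an activating receptor for IgG2 subclasses, had its highest level in nonclassical monocytes, at 574 CPM (497 to 659) in the BLM and 448 CPM (409 to 489) in the naive library (log2 ratio 0.36, 0.11 to 0.60). It exceeded classical monocytes by a log2 ratio of 2.82 (2.46 to 3.19) in the BLM and 3.14 (2.72 to 3.58) in the naive library. Neutrophils ranked second in the naive library with 253 CPM, and were lower in the BLM library at 155 CPM (-0.70, -0.99 to -0.42). AMs had 144 and 155 CPM (-0.10, -0.26 to 0.05). In the AMs with fewer than 2 of Spp1, Arg1 and Gpnmb it was 88.1 and 152 CPM (-0.78, -1.38 to -0.24), from 29 and 449 UMIs. C1q macrophages with little Spp1 had 80.3 and 39 CPM, from 84 and 16 UMIs (1.04, 0.26 to 1.91), and 0.77 with every cell weighted the same. In T cells 5 and 15 UMIs were counted, a log2 ratio of -1.80 (-3.62 to -0.27) at a level of 2.56 and 8.93 CPM. Spp1-high C1q macrophages had less Fcgr4 than BLM AMs by a log2 ratio of -0.81 (-1 to -0.63).

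Fcer1g, the shared gamma chain, was the most abundant member and differed little between the libraries in myeloid classes. It was highest in nonclassical monocytes at 3355 CPM in the BLM and 3421 CPM in the naive library (log2 ratio -0.03, -0.12 to 0.07). Among the other macrophage, monocyte, neutrophil and NK classes it ranged from 1897 CPM in BLM neutrophils to 2535 CPM in naive classical monocytes. A UMI was found in 98.1% of BLM AMs and 98.2% of naive AMs. NK cells, in which the gamma chain serves CD16 and activating NK receptors, had 1957 and 2202 CPM (-0.17, -0.31 to -0.03). cDC2s had 1173 and 1229 CPM, cDC1s 288 and 420 CPM. T cells (82.8 and 139 CPM) and B cells (111 and 129 CPM) carried UMIs in 17.9% and 28.9% and in 16.3% and 24.6% of cells. In T cells the log2 ratio was -0.74 (-1.04 to -0.45). The summed level of the 8 NK cell markers in T cells was 108 and 205 CPM, and that of the 8 C1q macrophage markers 125 and 49.4 CPM, with all 8 of each seen in both libraries. Their part in this ratio was not tested.

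FcRn, encoded by Fcgrt, went the other way from Fcgr2b in AMs. It stood at 188 CPM (693 UMIs) in the BLM and 291 CPM (1804 UMIs) in the naive library, a log2 ratio of -0.63 (-0.76 to -0.50). Of 320 BLM AMs, 26.9% lay above the naive median. In the 185 AMs outside the clusters dominated by Spp1-high C1q macrophages the ratio was -0.81 (-0.96 to -0.66). C1q macrophages with little Spp1 had 273 and 444 CPM (-0.70, -0.97 to -0.42), yet the ratio was 0.53 when clusters replaced gates. In those with 2 or more of Folr2, Lyve1 and Cd163 it was 0.46 (0.18 to 0.74), with 776 and 566 CPM. By cluster, the 38 BLM cells of one cluster had 842 CPM, and the 63 and 29 cells of other clusters had 71.9 and 92.8 CPM. The direction of Fcgrt in C1q macrophages thus rested on which cells were counted. In cDC2s Fcgrt was 213 and 116 CPM (0.88, 0.39 to 1.39), from 92 and 56 UMIs. In classical monocytes it was 75.9 and 46 CPM (0.72, 0.20 to 1.27), from 88 and 47 UMIs. Macrophage markers in these cDC2s and monocytes are given above, and their part in both Fcgrt ratios was not tested.

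Fcrls had its highest levels, among the compared classes, in C1q macrophages and cDC2s. C1q macrophages with little Spp1 had 265 CPM in the BLM and 504 CPM in the naive library (log2 ratio -0.93, -1.2 to -0.66). As for Fcgrt, the difference shrank with clusters in place of gates (-0.036) and in the cells with 2 or more of Folr2, Lyve1 and Cd163 (425 and 498 CPM, -0.23, -0.55 to 0.09). Spp1-high C1q macrophages had 99.7 CPM, below the other BLM C1q macrophages by a log2 ratio of -1.41 (-1.62 to -1.2) and above BLM AMs by 3.57 (3.04 to 4.14). cDC2s had 120 and 116 CPM, from 13 of 59 and 20 of 74 cells. AMs had 8.41 and 18.9 CPM (-1.17, -1.79 to -0.58), which turned to 0.43 with stricter gates. Few cells carried this difference. The naive AM clusters of 403 and 210 cells held 16 and 6 of the 117 naive UMIs (3.45 and 4.12 CPM), and the BLM clusters of 182 and 122 cells held 7 and 3 of the 31 BLM UMIs (2.69 and 3.23 CPM). The remaining UMIs lay in AMs of other clusters. Nonclassical monocytes had a UMI in 0 of 134 BLM cells (a count of 0 allows at most 2.24% of them) and 23 UMIs in the naive library. With a floor of 3 counts in place of 0, the BLM level was 2.48-fold lower. The exact interval of the log2 ratio ended at -0.90, short of 2-fold.

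B cells carried Fcer2a and Fcmr, and both were lower in the BLM library. Fcer2a, the IgE receptor CD23 of follicular B cells, was 359 CPM (327 to 394, 458 UMIs in 578 cells) in the BLM and 548 CPM (515 to 583, 1026 UMIs in 782 cells) in the naive library, a log2 ratio of -0.61 (-0.77 to -0.45). Fcmr, the IgM receptor, was 297 and 462 CPM (-0.64, -0.82 to -0.46). A Fcer2a UMI was found in 44.3% and 58.2% of B cells, and in 30.9% and 40.6% after thinning to 1000 UMIs. The T cell shares were 0.137% and 1.13% before thinning, and for Fcmr 0 of 728 cells (at most 0.412%) and 0.969%. For Fcmr the B cell shares were 43.4% and 56.1%, and 26.9% and 35.2% thinned. The median depth of B cells was 1717.5 and 1962.5 UMIs. Both genes were detected together in 19.2% of BLM and 32.1% of naive B cells.

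B cells with an Ighd UMI, the constant region of IgD that marks mature naive B cells, made up 77% of BLM and 84.3% of naive B cells. Within them Fcer2a was 426 CPM in the BLM and 607 CPM in the naive library, and Fcmr 310 and 493 CPM. Cells without an Ighd UMI had Fcer2a at 180 and 306 CPM and Fcmr at 264 and 333 CPM, the latter pair with overlapping intervals. Fcgr2b was higher in B cells without Ighd, at 255 against 158 CPM in the BLM and 201 against 135 CPM in the naive library. The lower Fcer2a of the BLM library was thus seen in both subsets.

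**Figure D5:**
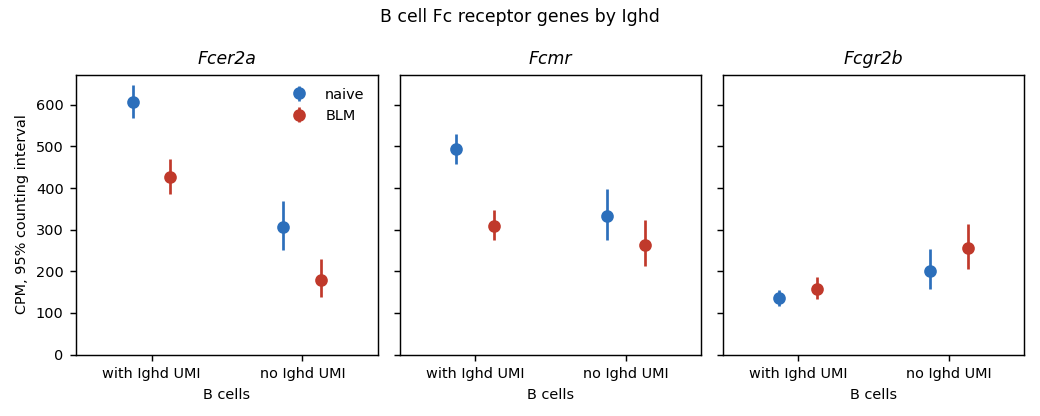
Fcer2a, Fcmr and Fcgr2b in CPM (y axis, from 0) in B cells with and without an Ighd UMI (x axis) of the naive (blue) and BLM (red) library; bars are exact Poisson 95% intervals. Fcer2a is lower in BLM B cells of both kinds, 426 against 607 CPM with Ighd and 180 against 306 CPM without.

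The B cell genes also showed up outside B cells at a trace. In AMs Fcer2a counted 4 UMIs in the BLM and 32 in the naive library (log2 ratio -2.25, -4.21 to -0.75), and Fcmr 3 and 19 UMIs (-1.91, -4.31 to -0.15). The summed level of the 7 B cell markers in AMs was 19.3 and 73.2 CPM, with all 7 seen in each library. The part of such RNA in these ratios was not tested.

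Fcer1a was a gene of single cells. Of 32 Fcer1a UMIs in the BLM library 28 came from the only cell gated as a mast cell, which also had 13 UMIs of Ms4a2, the beta chain of the same receptor, and 14 of Fcer1g. In the naive library 25 of 29 UMIs came from 3 of 4 mast cells, with 2, 10 and 13 UMIs. With 1 and 4 mast cells the libraries cannot be compared. Basophils had 1 Fcer1a UMI in 3 BLM cells and 0 in 7 naive cells, which at a floor of 3 allows 42.9% of them, although 6 of the 7 carried Ms4a2 (22 UMIs in all). At a median of 2405 UMIs per naive basophil, 0 of 16591 UMIs does not show absence. Outside these gates 1 of 4389 BLM cells and 4 of 3809 naive cells carried a Fcer1a UMI.

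Across the 9 compared classes, 57 pairs of a member and a class had 20 or more UMIs over both libraries, and 13 passed 2-fold. The share of all genes past 2-fold is the background. In AMs 4 of 9 members passed, against 14.8% of 10335 genes. These were Fcgr2b, higher in BLM, and Fcer2a, Fcmr and Fcrls, lower, the last carried by a few cells as given above. In C1q macrophages with little Spp1 2 of 7 passed, Fcgr2b and Fcgr4, against 17.5% of genes. In cDC2s 2 of 6 passed, Fcgr1 and Fcgr3, against 16% of genes, and in classical monocytes 1 of 7, Fcgr2b, against 11.5%. In neutrophils Fcgr2b and Fcgrt passed, 2 of 6 against 10.9%, the latter from 11 and 13 UMIs with an interval that included 0 (-2.43 to 0.15) and a reversed ratio with stricter gates. In nonclassical monocytes Fcrls was 1 of 7 against 9.92%, and in T cells Fcgr4 was 1 of 5 against 6.59%. None of 7 in B cells and none of 3 in NK cells passed, against 6.12% and 8.82%. With so few members, these shares do not set the family apart from other genes. The median log2 ratio of all genes was -0.20 in AMs and -0.11 in NK cells, and within 0.10 of 0 in the other classes. Centred on that median, Fcgr2b in AMs had a log2 ratio of 1.996.

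Genes that act with these receptors were followed in 6 lists. Of 7 receptors that pair with the gamma chain, 6 had enough UMIs in AMs, where 3 were higher and 1 lower past 2-fold. They included Clec4e (Mincle), at 189 and 73.2 CPM (log2 ratio 1.37, 1.2 to 1.55), and Tarm1, with 23 and 5 UMIs (2.95, 1.53 to 4.70). Lilra5 was lower, at 118 and 248 CPM (-1.07, -1.23 to -0.91). In C1q macrophages with little Spp1 3 of 6 were higher and none lower. Clec4n (Dectin-2), a receptor for fungal mannans, was 989 and 65.8 CPM there (3.91, 3.36 to 4.52). In cDC2s 3 of 4 were higher, with Clec4n at 864 and 53.8 CPM (4.01, 3.43 to 4.64). In classical monocytes 2 of 6 were higher, with Clec4n at 489 and 90.1 CPM (2.44, 2.12 to 2.78). The T cell levels of Clec4n were 27.6 and 8.34 CPM, and the AM levels 1582 and 710 CPM. The AM panel in cDC2s was 2123 and 1382 CPM (7 and 11 of 11 markers seen), and C1q macrophage markers there are given above. In C1q macrophages with little Spp1 the AM panel was 4612 and 3300 CPM (9 and 11 of 11 seen). The part of RNA from other macrophages in the Clec4n ratios of these C1q macrophages, cDC2s and classical monocytes was not tested. The other choices of C1q macrophages, which changed the ratios of Fcgrt and Fcrls, are not given for Clec4n.

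The signalling lists were short, and their counts do not set them apart from other genes. The shares of all genes past 2-fold were 14.8% in AMs, 17.5% in C1q macrophages with little Spp1 and 16% in cDC2s. They were 11.5% in classical monocytes, 9.92% in nonclassical monocytes and 6.12% in B cells. Of 14 activating kinases and adaptors, all 14 had enough UMIs in AMs, and 1 passed 2-fold, the adaptor Lat2 (44.8 and 12.3 CPM, log2 ratio 1.87, 1.47 to 2.28). Their median log2 ratio in AMs was -0.07 against -0.20 for all genes. Of 11 inhibitory genes 10 had enough UMIs and 1 passed, the adaptor Dok2 (131 and 34.5 CPM, 1.93, 1.69 to 2.17). Dok2 was also higher in classical monocytes (79.4 and 18.6 CPM, 2.09, 1.37 to 2.89). In C1q macrophages with little Spp1 1 of 13 activating genes passed, the Src family kinase Fgr, at 174 and 46.3 CPM (1.91, 1.23 to 2.67). None of 11 inhibitory genes passed there. Fgr was 323 and 295 CPM in AMs, and the part of AM RNA in its C1q macrophage ratio was not tested. In cDC2s 1 of 13 activating genes was lower, Lcp2 (-1.23, -2.08 to -0.44), and 2 of 10 inhibitory genes were higher, Dok1 and Dok2. In nonclassical monocytes 1 of 13 activating genes was higher, Pik3r5 (1.12, 0.54 to 1.69), and 1 of 10 inhibitory genes was lower. In B cells none of 13 activating genes passed, and of 6 other Fc-like receptors 2 were higher, Fcrl5 (39.2 and 15.5 CPM, 1.34, 0.65 to 2.05) and Pigr (26 and 13 UMIs). Of 5 ITAM adaptors 4 were counted in AMs, and 1 was lower past 2-fold, the B cell gene Cd79a (8.68 and 36 CPM). Of 8 immunoglobulin genes, the ligands of the family, 5 were counted in AMs, with 1 higher and 4 lower. Ighg2b had 0 and 65 UMIs there. In B cells it went the other way, at 32.9 CPM in the BLM and 13.4 CPM in the naive library. It was among the leading genes of the 12 naive cells gated as plasma cells, while the 2 BLM ones led with Tagln and Acta2. The B cell markers in AMs are given above, and the plasma cell panel there was 255 and 390 CPM (6 and 7 of 7 seen). The part of such RNA in the Ighg2b difference was not tested.

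Over the 18 profiles of 9 classes in 2 libraries, the genes most like a member among 10918 were those with the highest Pearson correlation of log2(CPM + 10). The profiles share libraries and depth, so this describes likeness only. Fcer1g was closest to Tyrobp, the other ITAM adaptor of myeloid and NK cells (r = 0.97). Fcgr3 was closest to Lamp2, a lysosomal membrane protein (r = 0.97), and Fcgr1 to Lamp1 (r = 0.94). Fcgr4 was closest to 6430548M08Rik (r = 0.97). Fcgrt was closest to Cryl1 (r = 0.95) and Fcrls to Retnla (r = 0.92). Fcer2a was closest to Cacna1e (r = 0.99), and Fcmr to the light chain gene Iglc3 (r = 0.99).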

How the data were processed

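CD45+ cells of each lung pool were captured and sequenced by the authors on the BD Rhapsody system with its whole transcriptome kit. Per the file headers, the BD Rhapsody WTA Analysis Pipeline (version 1.8) was used with the GRCm38 genome and GENCODE M19 genes, and the authors deposited whole-number counts of molecules per cell and gene, corrected for UMI errors, with no normalization. A gene absent from 1 table was taken as 0. Gene positions and transcripts come from GENCODE M21 of the same build. The study went on with SeqGeq and Seurat, whose output was not used here.

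From the counts, cells with at least 200 genes and at most 15% mitochondrial UMIs were kept, and the highest-scoring 3% by Scrublet were left out as doublets (133 and 105 cells), since its own threshold marked only 8 and 61. The total was 22490782 UMIs in 4714 BLM barcodes and 18019004 in 4062 naive barcodes, and a class value rests on the UMIs given beside it. A cell took the class of the marker panel with the highest share of markers detected, with 3 or more detected and no tie. Cells with 3 or more of 6 cycling genes were kept apart, and 236 BLM and 132 naive cells stayed unassigned. Cells near a gate were common: the lead over the next panel was 0.1 or less for 78 of 320 BLM AMs and 12 of 628 naive AMs. C1q macrophages were split by 2 or more of Spp1, Arg1 and Gpnmb. UMIs were summed per class and library and divided by the class total (CPM). Intervals are exact Poisson for CPM, Clopper-Pearson for shares and exact conditional for log2 ratios, and cover counting error only. Ratios were read for genes with 20 or more UMIs over both libraries, and a 2-fold difference stood in for a test, because there was 1 library per treatment. Against 0 UMIs the floor was 3 counts. For shares of cells, a second value rests on 1000 UMIs drawn from each cell.

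Samples were grouped by the treatment label. The named genes are all 10 members, the 3 genes most like each (the first is printed, and that of Fcgr2b is not reported here), and from each list at most 2 at either end by the interval bound nearer 0. The members and lists were chosen with earlier results of these data known. Alternatives were 10% mitochondrial UMIs, doublets kept, Leiden clusters (scanpy 1.11.5, resolution 1.5, 2000 variable genes without the members, 30 components, 15 neighbours), stricter gates with a lead over 0.2, cells of 1000 or more UMIs, other scalings and UMI minimums. The 2 added subsets of AMs and 1 of C1q macrophages were chosen after seeing the data. Ratio and interval code was tested on simulated data. Numpy 2.4.6, scipy 1.17.1 and pandas 2.3.3 were used in Python 3.11.15.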

Additional observations from a re-analysis of the deposited data

Results flagged for a closer look

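Fcgr4 passed 2-fold in opposite directions in a pair of classes. The log2 ratio of BLM over naive was 1.04 in C1q macrophages with little Spp1 (84 and 16 UMIs) and -1.80 in T cells (5 and 15 UMIs), at levels of 2.56 and 8.93 CPM. The former did not pass 2-fold with every cell weighted the same. T cells are the class given for comparison above, as they should lack most members. The AM panel in T cells was 359 CPM in the BLM and 666 CPM in the naive library, and the C1q macrophage panel 125 and 49.4 CPM. The part of such RNA in the T cell ratio was not tested. With 1 library per treatment the difference between the log2 ratios of both classes was not tested.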

How the results depend on the processing

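Of 470 log2 ratios under the alternatives, 442 kept their direction, and of the 107 belonging to pairs past 2-fold, 104 kept direction and 92 stayed past 2-fold. The count of members past 2-fold in a class, 13, was 8 with Leiden clusters in place of gates, 8 with stricter gates, 7 with 100 or more UMIs and 25 with 1 or more UMIs. For C1q macrophages with little Spp1, clusters gave log2 ratios of 1.26 for Fcgr2b, 0.53 for Fcgrt and -0.036 for Fcrls, stricter gates gave -0.36 for Fcgrt, and cells with 2 or more of Folr2, Lyve1 and Cd163 gave 1.5 for Fcgr2b, 0.46 for Fcgrt and -0.23 for Fcrls. Fcgrt in neutrophils reversed to 0.10 with clusters and 0.098 with stricter gates, and Fcrls in AMs reversed to 0.43 with stricter gates. The share of Fcgr2b in Fc gamma receptor UMIs of BLM AMs was 46.3% with clusters and 49.2% with stricter gates. The cause was not tested. Fcgr2b in AMs stayed past 2-fold under every alternative run, from 1.44 to 2.11. Among the 3 genes most like a member, 3 of 3 were shared for Fcer1g with log2(CPM + 1), and 1 or 2 for the other members whose likeness is given. No paired analysis was possible because each treatment had 1 library. For the same reason no replicate could be left out.

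Counting limits the low members: NK cells and neutrophils had medians of 1331 to 2136 UMIs per cell, so a member seen in few of them was not shown to be absent from the rest. Fcgr2b and Fcgr3 share transcript sequence, and molecules from it cannot be told apart.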
